A study of Mus musculus with 6 samples.

Results

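The genes described here are 10 heat shock proteins and chaperones, matched by symbol among the 31053 genes of a single-cell RNA count matrix: Hspa1a, Hspa1b, Dnajb1, Hsph1, Hsp90aa1, Hsp90ab1, Hspa8, Hspa5, Hspd1 and Hspe1. All 10 symbols were found, each once. The cells were CD45+ leukocytes, sorted after a percoll gradient from the right brain hemisphere of female SCID mice that carried an intracranial human U87 glioma xenograft. Both groups of mice received 50000 U87 cells. In the IL33 group (n = 3 mice, taken at 3 weeks) the glioma cells expressed IL-33, and in the pcDNA group (n = 3 mice, taken at 6 weeks) they carried the empty pcDNA 3.1 vector. The labels give the mice as 6 to 8 weeks old in one field and 8 weeks old at implantation in another. SCID mice lack mature T and B lymphocytes, so these hosts keep only part of the immune system, and the tumor cells are 1 established human line. Since the groups also differed in the time of collection, genotype of the tumor and time could not be told apart in this design. The count matrix joins all mice, and its barcodes carry a suffix from 1 to 6 that the GEO labels do not name. Groups were taken from those labels only, so the suffixes were not assigned to mice here, IL33 and pcDNA were not compared, the whole matrix was treated as 1 sample, and no p-value is given. Each level is reported for the pooled cells and for each suffix, and the suffixes are described without assigning them to a group.

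Chaperones bind unfolded or partly folded proteins and keep them from aggregating until they fold. HSP70 proteins do this in cycles of ATP hydrolysis that a J-domain partner such as Dnajb1 starts and a nucleotide exchange factor such as Hsph1 ends, and HSP90 proteins take over clients such as kinases and steroid receptors at a later step. In the cytosol Hspa1a and Hspa1b are the stress-inducible HSP70 proteins, Hspa8 is the constitutive one, and Hsp90aa1 and Hsp90ab1 are the inducible and the constitutive HSP90. Hspa5, also called BiP, is the HSP70 of the endoplasmic reticulum, and Hspd1 and Hspe1 (HSP60 and HSP10) form the folding chamber of mitochondria. Heat shock factor 1 switches on the cytosolic set through heat shock elements made of inverted GAA and TTC units, and the unfolded protein response switches on Hspa5 through the ER stress element. Microglia are the resident macrophages of the brain, and tissue dissociation is known to induce heat shock and immediate early genes in them.

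Promoter sequences are shown to give which members hold the heat shock and ER stress elements named above. RefSeq windows of 300 bases (250 before to 50 after a start site, build GRCm38.p6) were held for 7 of the 10 members, and for Hsp90aa1, Hsp90ab1 and Hspa8 none is printed. Paired heat shock motifs (GAANNTTC or TTCNNGAA, which can overlap each other), the longer motif of 3 such units (GAA, TTC and GAA, with 2 bases between neighbours) and the ER stress element (CCAAT and CCACG with 9 bases between) were searched on both strands. Of 32851 such windows, 15.1% held a paired motif, 0.603% the longer one and 0.119% the ER stress element. Capitals mark the motifs that were found. The first 3 sequences are the 250 bases before the start site of Hspa1a (chr17:34972157-34972406, minus strand), of Dnajb1 (chr8:83607925-83608174, plus strand) and of Hspa5 (chr2:34771840-34772089, plus strand), and the last are 30 bases of the Hspe1 window (chr1:55088053-55088082, plus strand) and of the Hsph1 window (chr5:149636287-149636316, minus strand).
Hspa1a: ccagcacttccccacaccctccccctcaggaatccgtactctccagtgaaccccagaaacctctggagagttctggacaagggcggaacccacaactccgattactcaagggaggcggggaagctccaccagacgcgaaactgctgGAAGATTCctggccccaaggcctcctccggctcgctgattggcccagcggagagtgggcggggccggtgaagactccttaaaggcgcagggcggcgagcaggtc
Dnajb1: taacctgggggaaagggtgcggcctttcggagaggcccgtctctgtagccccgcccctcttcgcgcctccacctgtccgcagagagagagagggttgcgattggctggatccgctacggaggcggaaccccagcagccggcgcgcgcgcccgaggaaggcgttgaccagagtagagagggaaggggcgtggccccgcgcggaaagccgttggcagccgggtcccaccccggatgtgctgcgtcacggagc
Hspa5: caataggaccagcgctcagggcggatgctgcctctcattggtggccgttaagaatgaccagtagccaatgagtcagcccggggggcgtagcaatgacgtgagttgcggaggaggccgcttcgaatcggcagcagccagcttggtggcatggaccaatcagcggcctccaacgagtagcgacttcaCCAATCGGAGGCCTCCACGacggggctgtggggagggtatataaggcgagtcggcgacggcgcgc
Hspe1: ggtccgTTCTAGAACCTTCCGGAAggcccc
Hsph1: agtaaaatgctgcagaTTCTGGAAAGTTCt
Hspa1a held 1 paired motif, 104 bases before its start site, and the Hspa1b window differed from that of Hspa1a at 4 of 300 bases and held the same motif. Neither of the windows of Dnajb1 held any of these letters. Hspa5 was the member with the ER stress element, 65 bases before its start site. Hspe1, the windows of Hsph1 and 1 of the windows of Hspd1 held the longer heat shock motif. Hspd1 and Hspe1 lie head to head on chromosome 1, so that this Hspd1 window and the Hspe1 window overlap and share the motif. A motif is a match of letters and not a measured site of binding.

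In the annotation (GENCODE M21, GRCm38), Hspa1a (ENSMUSG00000091971, chr17:34969190-34972156, minus strand) and Hspa1b (ENSMUSG00000090877, chr17:34956436-34959238, minus strand) are neighbours whose whole transcripts are 84.3% identical. Of the 98-base windows, the length of the read, 47.5% of Hspa1a and 50.4% of Hspa1b were found unchanged in the other, but none of those in the last 500 bases, where 3′ reads mostly fall. The split of reads between this pair is uncertain to the extent that reads fell elsewhere. Dnajb1 (ENSMUSG00000005483, chr8:83608193-83612653), Hspa8 (ENSMUSG00000015656, chr9:40800984-40810087), Hspa5 (ENSMUSG00000026864, chr2:34771970-34777547) and Hspe1 (ENSMUSG00000073676, chr1:55088132-55091307) lie on the plus strand. Hsp90aa1 (ENSMUSG00000021270, chr12:110690605-110702728), Hsp90ab1 (ENSMUSG00000023944, chr17:45567775-45573271), Hsph1 (ENSMUSG00000029657, chr5:149614287-149636376) and Hspd1 (ENSMUSG00000025980, chr1:55077835-55088243) lie on the minus strand. Hspd1 has 5 pseudogenes of its name in the annotation and Hspe1 has 6, and reads shared with those copies are uncertain.

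The matrix held 105560763 UMIs (unique molecular identifiers, each standing for 1 captured molecule) in 40411 barcode entries. The 6 suffixes held 2879 to 10217 entries and 9745192 to 24393841 UMIs each, with a median of 1536 to 3503 UMIs per entry. An entry was used when it had over 200 and at most 2500 genes and under 5% mitochondrial UMIs, which 38751 did. Many barcodes recur: 14722 entries (36.4%) carried a barcode that stood under more than 1 suffix. For 3229 barcodes under 3 or more suffixes, the profiles of the same barcode under 2 suffixes correlated with a median r of 0.342 over 1000 genes, against 0.0335 for different barcodes, and those entries had a median of 916 UMIs against 3137 for barcodes of 1 suffix. The suffixes are thus not fully separate sets of cells. Most comparisons are given both for all barcodes and for the 24262 passing barcodes of 1 suffix only. Other values are given for 1 of these sets. Cells were called microglia-like from at least 3 UMIs over Tmem119, Gpr34, Olfml3, P2ry12, Cx3cr1 and Selplg (37391 entries, 23619 of 1 suffix). Smaller groups were gated on other markers, with at most 2 microglial UMIs: monocyte-like (78, on Ly6c2 and Ccr2), Cd209a-positive (37, the same with a UMI of Cd209a), NK cell-like (55, on Gzma, Nkg7 and Ncr1) and granulocyte-like (39, on S100a9, S100a8, Ngp and Camp). The choroid plexus-like gate (267, on Enpp2, Clu, Igfbp2, Sostdc1, Folr1 and Kcnj13) set no limit on microglial UMIs. The remainder (796 entries, median 726 UMIs) met no gate, and 79.4% of it carried shared barcodes. The microglial markers summed to 13281 UMIs per 1000000 (CPM) in microglia-like cells, to between 268 and 944 in the 4 other leukocyte groups and to 4904 in the choroid plexus-like group, where choroid plexus markers summed to 18427. Lymphocyte markers summed to 0.879 CPM in the microglia-like cells.

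Together the 10 genes made up 0.794% of all UMIs of the microglia-like cells. Levels are CPM of the summed UMIs, with exact Poisson 95% intervals that cover counting error only; the reads come from transcript ends, so a level was not divided by transcript length. Hspa5 took 46.0% of the sum, Hspa8 22.2% and Dnajb1 16.0%. Their levels were 3649.8 CPM (3638 to 3662) for Hspa5, 1764 CPM (1756 to 1773) for Hspa8 and 1271 CPM (1264 to 1279) for Dnajb1. Both HSP90 genes stood next and close to each other, Hsp90ab1 at 478 CPM (474 to 483) and Hsp90aa1 at 473 CPM (468 to 477). The mitochondrial pair followed, with Hspe1 at 116 CPM (114 to 118) and Hspd1 at 94.7 CPM (92.8 to 96.7). Hspa1a was at 83.4 CPM (81.5 to 85.2), Hsph1 at 8.17 CPM (7.60 to 8.77) and Hspa1b at 0.375 CPM (0.261 to 0.522). Hspa1b and Hsph1 lay below the minimum of 20 CPM used for comparisons, so 8 of the 10 members could be tested within the microglia-like cells. Hspa1b had 35 UMIs against 7772 of Hspa1a there. The neighbours Hsp90ab1 and Hsp90aa1 overlapped over the suffixes, as did Hspe1 with Hspd1, and Hspd1 with Hspa1a. Hspa5 was above Hspa8 and Hspa8 was above Dnajb1 in 6 of 6 suffixes.

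Of the members that could be tested, Dnajb1, Hspa1a and Hspa5 differed most between the suffixes. Dnajb1, the J-domain partner of HSP70, stood at 1679, 1663, 1499, 893, 745 and 881 CPM in suffixes 1 to 6. It was highest in suffix 1 and lowest in suffix 5. With barcodes of 1 suffix its levels were 1935, 1938, 1545, 946, 843 and 923 CPM, lowest again in suffix 5. Hspa1a, the inducible HSP70, was at 111, 106, 93.1, 70.7, 53.1 and 49.4 CPM, highest in suffix 1 and lowest in suffix 6. Its highest level was 2.26 times its lowest (2.49 with barcodes of 1 suffix), and for Dnajb1 this ratio was 2.25 (2.30). Hspa5, the HSP70 of the endoplasmic reticulum, was at 4587, 4160.2, 3771, 3494, 2634 and 2730.1 CPM, a ratio of 1.74 (1.82). Of the 8 testable members these 3 spread by 1.5-fold or more between suffixes, against 10.8% of all genes at 20 CPM or more. In barcodes of 1 suffix Hspa8 joined them at 1.52, making 4 of 8 against 13.5%.

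The other members varied less between suffixes. Hspa8, the constitutive HSP70, was at 1876, 2012, 1798, 1725, 1409.9 and 1578 CPM in suffixes 1 to 6, in a ratio of 1.43. Hsp90ab1 was at 472, 484, 459.8, 545, 444 and 453 CPM, a ratio of 1.23, and its highest level was in suffix 4. Hsp90aa1, the inducible HSP90, ran from 414 to 505 CPM (median 485), a ratio of 1.22. Hspd1 ran from 81.5 to 112 CPM (median 91.8) and Hspe1 from 96.4 to 137 CPM (median 116), both highest in suffix 4. Suffix 4, the highest for Hsp90ab1, Hspd1 and Hspe1, was among the lower ones for Dnajb1. Hsph1 stayed between 6.70 and 9.11 CPM.

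**Figure D1:**
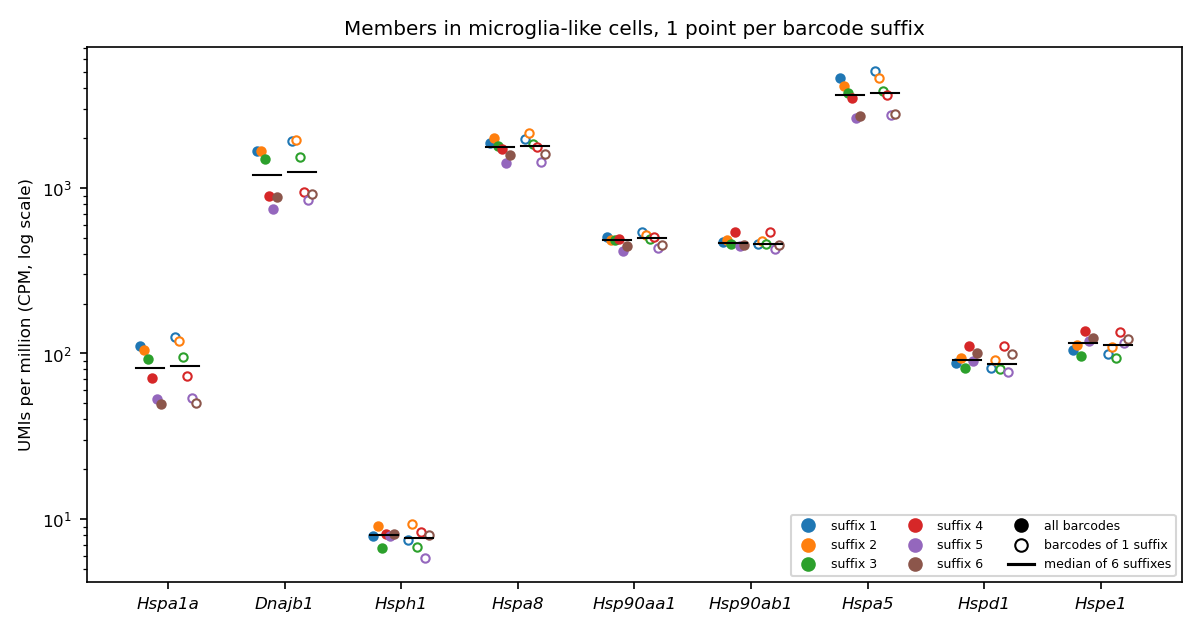
Level of 9 members (Hspa1b, at 0.375 CPM, is not drawn) in microglia-like cells of each barcode suffix, in CPM on a log scale, with filled points for all barcodes, open points for barcodes of 1 suffix and a bar at the median of the 6 suffixes. The points of Dnajb1, Hspa1a and Hspa5 are spread by 1.74 to 2.26-fold with all barcodes, and those of Hsp90ab1 by 1.23-fold.

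The spread of Dnajb1 between suffixes was also present within narrower sets of cells. Among microglia-like entries with 2000 to under 3000 UMIs it ran from 886 to 2085 CPM over the suffixes, a ratio of 2.35. Among those with under 0.2% Apoe UMIs it ran from 943 to 2149 CPM, a ratio of 2.28. In entries whose barcode stood under 3 or more suffixes the levels lay closer together, from 407 to 593 CPM, a ratio of 1.46. Hspa5 did likewise there, from 2072 to 2321 CPM, a ratio of 1.12, whereas Hspa1a kept a ratio of 2.11. The suffixes were not assigned to mice, groups, times of collection or sequencing runs here, and the part of each in the spread was not tested. Of the 16 immediate early genes, which dissociation also induces, 7 spread by 1.5-fold or more over the suffixes, among them Nr4a1 (2.08) and Jund (1.75). Their part in the spread of the members was not tested.

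Sharing of a barcode went with lower Dnajb1, Hspa5 and Hspa1a. In microglia-like entries of barcodes under 3 or more suffixes Dnajb1 was at 478 CPM, against 1416 CPM in those of 1 suffix, 2.96-fold lower, and it was lower in 6 of 6 suffixes. Hspa1a was 1.84-fold lower (48.8 against 90.0 CPM) and Hspa5 1.71-fold lower (2281 against 3898 CPM), also in 6 of 6. The shared barcodes recur from suffix to suffix with correlated profiles, so these 6 suffixes are not separate repeats. A gene was called in such comparisons when it differed by at least 1.5-fold over the pooled cells and in the same direction in every suffix with 20 or more cells of both groups. These 3 of 8 tested members stood against 8.88% of all genes called lower, no member was higher against 9.08%, and Hsp90ab1 was at a ratio of 1.08. The cochaperone Fkbp5, a glucocorticoid-responsive partner of HSP90, was 7.51-fold higher in the shared barcodes (184 against 24.5 CPM). Shared entries were shallower, with a median of 927 UMIs against 3128. Thinned to 500 UMIs per entry, the ratios were 0.335 for Dnajb1, 0.527 for Hspa1a and 0.601 for Hspa5. Thinning keeps the expected share of a gene in each entry, so these ratios cannot show the part of depth, which was not tested. In bulk sums of this kind, fewer cells with a transcript and less of it per cell cannot be told apart.

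By depth, Dnajb1 was 2.40-fold and Hspa5 1.52-fold higher in microglia-like entries of 3000 UMIs or more than in those under 1000, as 2 of 8 tested members, against 7.16% of all genes. No member was lower, against 10.2%, and the median log2 ratio of all genes was -0.15. The rise was not steady. The 10 genes were 0.563% of UMIs in entries under 1000, 0.888% at 2000 to under 3000 and 0.796% at 6000 or more. Dnajb1 took 9.73%, 18.6% and 15.4% of these, and was highest in the middle bin, which this comparison leaves out. With barcodes of 1 suffix the 10 genes were 0.731%, 0.920% and 0.796%, and Dnajb1 took 12.2%, 19.0% and 15.3% of these. Of the shallow entries 91.5% carried shared barcodes. Among barcodes of 1 suffix Dnajb1 was at 1325 CPM in deep and 889 CPM in shallow cells, a ratio of 1.49, Hspa5 at a ratio of 1.01, and no member was called, against 3.93% higher and 3.38% lower. The Hspa5 call was also lost without suffix 1 (ratio 1.41) or without suffix 2 (ratio 1.46).

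Members also graded with Apoe, an apolipoprotein that microglia raise in disease-associated states. Over the bins of under 0.2%, 0.2 to under 1%, 1 to under 3% and 3% or more of UMIs from Apoe, Dnajb1 was at 1688, 1463, 909 and 456 CPM. For barcodes of 1 suffix the 4 levels were 1709, 1509.8, 1033 and 563 CPM, falling in the same order over a smaller range. Hspa5 was at 4369, 3958, 3074 and 2225 CPM and Hspa1a at 114, 84.1, 64.6 and 44.3 CPM over the same bins, both in the same order. Hsp90ab1 did not grade, at 478, 476, 489 and 471 CPM. Hsp90aa1 was lower at high Apoe, from 483 to 568 CPM over the suffixes in the lowest bin and 326 to 398 CPM in the highest. Hspa8 ran from 1445 to 2221 CPM and from 1333 to 1559 CPM in these bins. Hspe1 ran from 91.2 to 130 CPM and from 117 to 163 CPM, and Hspd1 from 78.3 to 118 CPM and from 96.5 to 112 CPM. Except for Hsp90aa1, these ranges overlapped between the bins. Cells were placed in an Apoe state from at least 10 Apoe UMIs that made up at least 1% of the cell (15488 entries, 65.1% of them with shared barcodes). Against the other microglia-like cells, Dnajb1 was 2.17-fold lower there (suffix ratios 0.447 to 0.610), Hspa1a 1.75-fold lower (0.460 to 0.786) and Hspa5 1.52-fold lower (0.632 to 0.788). These were 3 of 8 members, against 2.25% of all genes, and none was higher, against 3.08%. With barcodes of 1 suffix Dnajb1 (1.81-fold) and Hspa1a (1.63-fold) remained called lower, 2 of 8 against 1.68%, and none was higher, against 2.8%. Hspa5 was then at a ratio of 0.727, and with all barcodes its call was lost without suffix 1 (ratio 0.667) or without suffix 2 (ratio 0.671). Among the other heat shock genes the small chaperone Hspb1 (ratio 0.572) and the J-domain gene Dnajb4 (0.613) were called lower in the Apoe state, with all barcodes, and Fkbp5 was higher (2.30); in barcodes of 1 suffix none of the 3 was called, at ratios of 0.690, 0.738 and 0.776. The immediate early gene Jund was also lower (0.650).

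**Figure D2:**
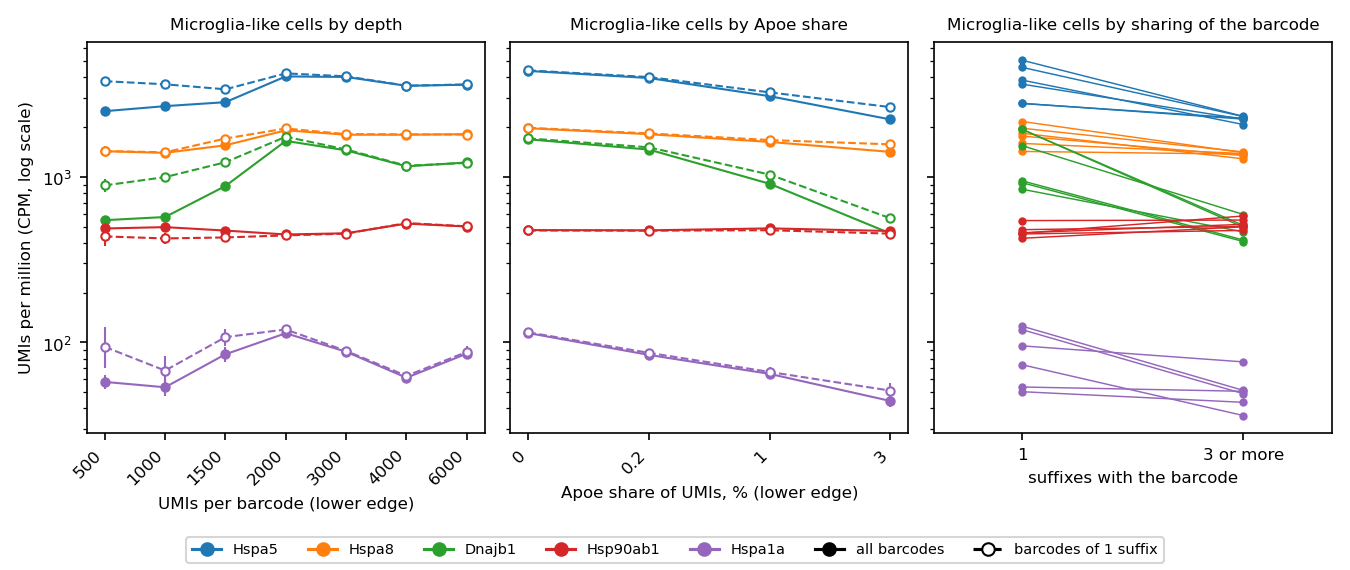
Level of 5 members in microglia-like cells by UMIs per barcode, by the Apoe share of UMIs and by the number of suffixes that carry the barcode, in CPM on a log scale, with filled points and solid lines for all barcodes, open points and dashed lines for barcodes of 1 suffix, bars for exact Poisson 95% intervals and, in the right panel, 1 line per suffix. Dnajb1 declines from 1688 to 456 CPM over the Apoe bins while Hsp90ab1 stays between 471 and 489 CPM.

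Dnajb1 and Hspa5 were lower in each of the other gated groups than in microglia-like cells, whereas the cytosolic HSP90 genes and the mitochondrial pair differed from group to group. For groups with 20 or more cells in fewer than 3 suffixes, namely the 4 leukocyte groups other than microglia-like, a gene was called on the pooled 1.5-fold ratio alone, which is a weaker rule. The monocyte-like cells (78 entries, 74 of 1 suffix) had Dnajb1 at 105 CPM (70.3 to 151), 12.1-fold below microglia-like cells, and Hspa5 at 857 CPM (752 to 974), 4.26-fold below. Of these entries 34 stood under suffix 4 and 28 under suffix 6, where microglia-like Dnajb1 and Hspa5 lay below their pooled levels. The folds are against microglia-like cells of all suffixes, and the part of the suffix in them was not tested. Hspa1a was at 28.9 CPM (12.5 to 57.0), from 8 UMIs. Hspa8 was higher, at 2659 CPM (2470.5 to 2859), a ratio of 1.51 that just met the rule. With all barcodes 3 of 8 tested members were lower, close to the 30.5% of all genes, and 1 of 8 higher, against 33.2%. In barcodes of 1 suffix the same 3 were lower, against 30.4%, and none was higher, against 34.1%, with Hspa8 at 1.44. The Hspa8 call was also lost without suffix 4 (ratio 1.34) or without suffix 5 (ratio 1.47), while without suffix 4 Hsp90aa1 was called lower (ratio 0.623) and without suffix 6 Hspd1 was called higher (ratio 1.52). Hspa8 alone made up 57.6% of the members' UMIs in monocyte-like cells and Dnajb1 2.27%. Of the 16 immediate early genes 14 were lower in monocyte-like cells, 14 in Cd209a-positive cells, 15 in NK cell-like cells and 15 in granulocyte-like cells, and their part in the differences of the members was not tested.

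The Cd209a-positive cells (37 entries), monocyte-gated cells with a marker of monocyte-derived dendritic cells, also had a low Dnajb1 (122 CPM, 75.6 to 187) and an Hspa5 of 1164 CPM (1008 to 1336), but a higher mitochondrial pair. Hspd1 was at 186 CPM (127 to 263) and Hspe1 at 244 CPM (176 to 330.3), 1.97 and 2.10 times the microglia-like levels. Of the 37 entries 13, 9 and 14 stood under suffixes 4, 5 and 6, and the reference was again microglia-like cells of all suffixes. Hspa1a had 1 UMI in all barcodes and none in those of 1 suffix, where a count of 0 allows up to 19.7 CPM. Of 8 tested members 3 were lower, Hspa1a among them, against 32.3% of all genes, and 2 were higher, against 36.5%; in barcodes of 1 suffix the counts were again 3 and 2, against 33.2% and 37.1%. Thinned to 500 UMIs per entry, the Hspe1 call was lost (ratio 1.39) and Dnajb1 and Hspa1a gave no ratio. Since a like share of all genes differed each way, the counts do not set the members apart.

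The NK cell-like group (55 entries) had a median of 1309 UMIs per entry. Of these entries 19 stood under suffix 4 and 21 under suffix 6, and the reference was microglia-like cells of all suffixes. Dnajb1 was at 246 CPM (153 to 377) and Hspa5 at 833 CPM (651 to 1051), both lower than in microglia-like cells. Hsp90ab1 was higher at 833 CPM (651 to 1051), as were Hspd1 at 176 CPM (98.5 to 290.3) and Hspe1 at 211 CPM (125 to 334). Hsph1, at 35.2 CPM, rested on 3 UMIs (7.26 to 103 CPM). Of 9 tested members 2 were lower, against 29.1%, and 4 were higher, against 44.8% of all genes. With barcodes of 1 suffix the counts were the same, against 30% and 45.3%. Hsph1 is 1 of the 9 and 1 of the 4. It reached the minimum of 20 CPM only through this group, so it could only be called higher. The shares of all genes hold genes admitted in the same way. With the least number of marker UMIs as the sole gate rule, the higher calls of Hsp90ab1 (ratio 1.29), Hspd1 (1.39) and Hspe1 (1.25) were lost, and thinned to 500 UMIs per entry that of Hspd1 was (1.12). The Hsp90ab1 call was lost without suffix 1 (ratio 1.45), while Hspa1a was called lower without suffix 1 (ratio 0.336) and higher without suffix 4 (1.63), so its direction there rests on single suffixes. In the granulocyte-like group (39 entries, 36024 UMIs in all) the 10 genes made up 0.169% of UMIs, the lowest share of any group. Hspa5 was at 777 CPM (516 to 1123), Hspa8 at 583 CPM (361 to 891) and Dnajb1 at 139 CPM (45.1 to 324). Hspd1 and Hspe1 had 0 UMIs, which allows up to 83.3 CPM, so no fold is given for them. The other 6 of 8 tested members were at least 1.5-fold lower. With Hspd1 and Hspe1 at 0 UMIs counted too, 8 of 8 met the rule, against 50.1% of all genes lower, genes at 0 included, and 30.5% higher. The same 8 were lower with barcodes of 1 suffix, against 50.5% and 30.8%. With the least number of marker UMIs as the sole gate rule, the lower calls of Hspa1a, Hsp90aa1, Hsp90ab1 and Hspa8 were lost. Hspd1 and Hspe1, then above 0 UMIs, were still called lower. In the group as first gated, Hspa1a and Hsp90ab1 rested on 1 UMI each, which is too few to set the size of a fold.

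The choroid plexus-like group, gated on markers of the epithelial cells that make cerebrospinal fluid, could be compared in 5 suffixes. Dnajb1 was at 504 CPM (452 to 561), 2.52-fold lower than in microglia-like cells (suffix ratios 0.115 to 0.717), and Hspa5 at 1548 CPM (1455 to 1646), 2.36-fold lower (0.329 to 0.709). These 2 of 9 tested members stood against 33.1% of all genes called lower, and none was higher, against 14.6%. Among barcodes of 1 suffix Hspa1a joined them, 3.50-fold lower, making 3 of 9 against 36.8%, and none was higher, against 16.8%. The median log2 ratio was 0.34 for the members and -0.50 for all genes. Hsph1 was at 24.0 CPM (13.7 to 39.0) against 8.17 CPM, but not in 1 direction in every suffix. It is counted among the 9 and in that median, but it reached the minimum of 20 CPM only through this group. Among the other heat shock genes, the small chaperone Cryab was at 374 CPM against 6.23 CPM in microglia-like cells, the collagen chaperone Serpinh1 at 31.5 CPM against 0.0643 CPM, and Hspa2 at 30.0 CPM against 4.01 CPM. Of the immediate early genes 15 of 16 were lower in this group and of the ER chaperones 7 of 19 were lower and 1 higher. The part of the microglial markers in this group, given above, was not tested. Without suffix 2 Hspa1a was called lower with all barcodes too (ratio 0.163), and higher calls appeared for Hspe1 without suffix 4 (2.08) and for Hsph1 and Hspd1 (the latter at 1.61) without suffix 6.

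In the remainder Dnajb1 was at 292 CPM (4.36-fold lower), Hspa5 at 1627 CPM (2.24-fold lower) and Hspa1a at 33.5 CPM (2.49-fold lower), in 6 of 6 suffixes. Most of these entries (79.4%) carried shared barcodes, so the 6 suffixes are not separate repeats here. Hspd1 and Hspe1 were 1.74 and 1.66 times as high as in microglia-like cells. These 3 lower and 2 higher of 8 members stood against 9.19% and 8.51% of all genes. For barcodes of 1 suffix (164 entries) Dnajb1 and Hspa5 were called lower, 2 of 8 against 13.9%, and none was higher, against 11.6%. The border macrophage-like gate held 2 entries and gives no result, and 86 entries that met 2 gates were left out of the comparisons.

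**Figure D3:**
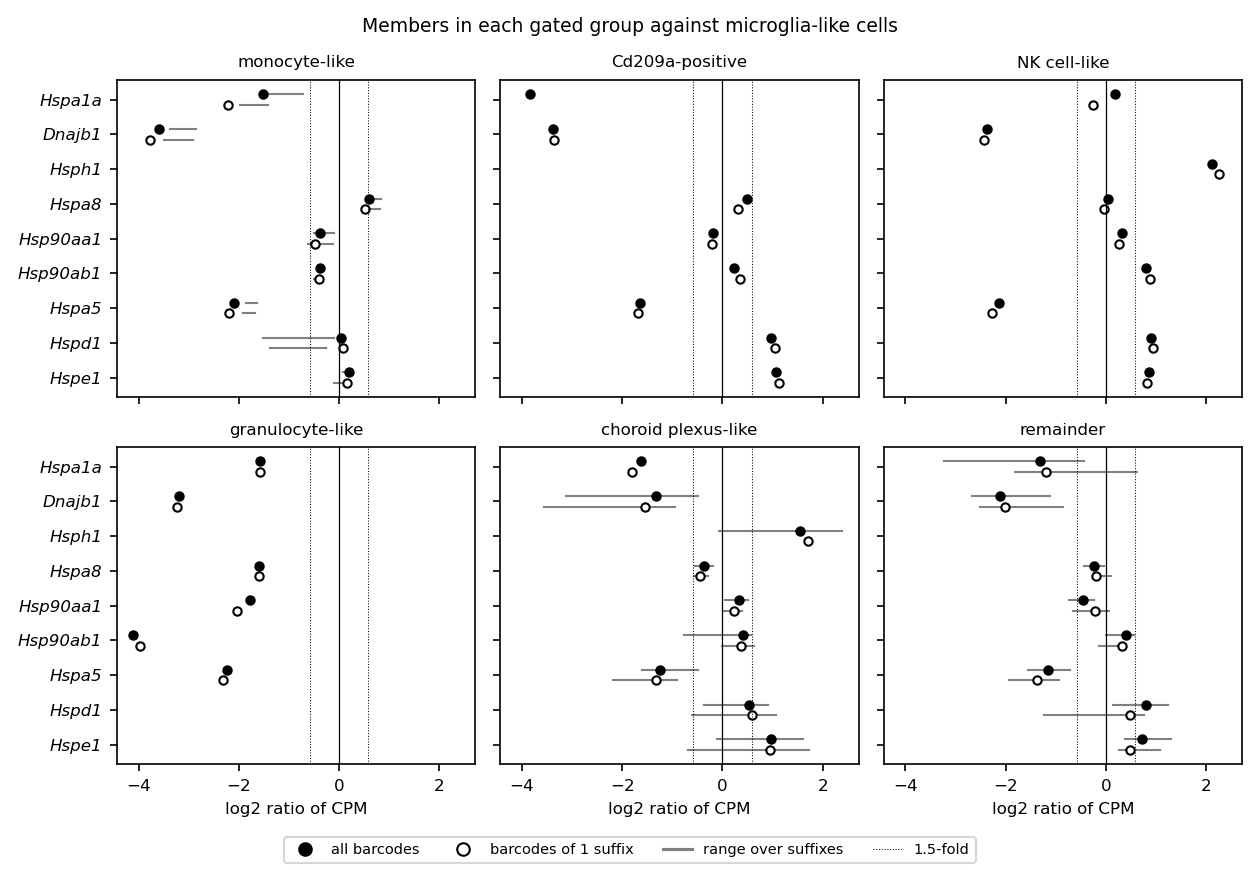
Log2 ratio of CPM of each tested member in the gated groups against microglia-like cells, with filled points for all barcodes, open points for barcodes of 1 suffix, grey bars for the range over suffixes where at least 2 suffixes had 20 cells and none was at 0, and dotted lines at 1.5-fold. Dnajb1 and Hspa5 lie left of the 1.5-fold line in all 6 groups; genes at 0 UMIs, such as Hspd1 and Hspe1 in the granulocyte-like group, are not drawn.

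Among microglia-like cells, the cycling states had low Dnajb1 beside high Hsp90aa1. States were gated on summed marker UMIs and compared with all other microglia-like cells. In the mitosis state (154 entries, from Top2a, Cenpa, Ccnb2 and 5 related genes) Hsp90aa1, the inducible HSP90, was at 978 CPM (894 to 1067), a ratio of 2.08 that ranged over the suffixes from 1.76 to 2.52. Dnajb1 was at 435 CPM (379.9 to 496), 2.93-fold lower and lower in 5 of 5 suffixes. These were 1 of 8 members higher, against 18.9% of all genes, and 1 lower, against 8.74%. Both counts are near the shares of all genes and do not set the members apart. With barcodes of 1 suffix Hspa5 (1.84-fold lower) was called too, which made 2 lower, against 9.38%, and 1 higher, against 20.6%. The cochaperones Stip1, which links HSP70 to HSP90 (2.42), and Ptges3, the p23 protein of the HSP90 cycle (2.15), were also called higher there. With all barcodes Hspa5 was called lower without suffix 5 (ratio 0.527) and Hspa1a without suffix 6 (0.310). Of the 16 immediate early genes 7 were lower in mitosis, and their part was not tested.

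In the S phase state (218 entries, from Mcm2, Mcm3, Mcm5, Mcm6, Hells, Rrm2 and Pcna) 3 of 8 members were higher, against 18.6% of all genes. Hsp90aa1 was at 982 CPM (ratio 2.09), Hspd1 at 173 CPM (1.83) and Hspa8 at 2854 CPM (1.63), each higher in 5 of 5 suffixes. Dnajb1 was 1.75-fold lower at 729.9 CPM, 1 of 8 against 6.64%. Thinned to 500 UMIs per entry, the calls of Hspd1 (ratio 1.71, but not higher in every suffix) and Dnajb1 (0.696) were lost. In barcodes of 1 suffix Hsp90ab1 (1.61) made 4 higher, against 20.4%, and 1 was lower, against 7.15%. With all barcodes Hsp90ab1 was called without suffix 1 (ratio 1.63) and Hspa1a, as lower, without suffix 2 (0.553). Over all genes the median log2 ratio was 0.17, against 0.42 for the members. In the same cells 7 of 22 cytosolic cochaperones were higher and 0 lower, led by Ptges3 (2.79), Hspa14 (2.60) and Nudc (2.43). Stip1 was at 2.67, the small chaperone Hspb1 at 2.10 and Fkbp4 at 2.06 times the level of the other cells. The mitochondrial HSP70 Hspa9 was at 1.56, while the heat shock cochaperone Bag3 was lower (0.419). At 500 UMIs per entry the higher calls of Hsp90aa1 (ratio 2.03) and Hspa8 (1.52) were kept. These cells were deeper, with a median of 3538 UMIs against 2467 for all microglia-like cells. The part of depth was not tested, since thinning keeps the expected share of a gene in each entry.

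In the state marked by Lpl, Fam20c and Mmp12 (421 entries, 141 of 1 suffix) both the cytosolic pair and the mitochondrial pair differed. Dnajb1 was at 510.0 CPM (2.51-fold lower) and Hspa1a at 28.4 CPM (2.95-fold lower), both lower in 5 of 5 suffixes. Hspd1 was at 183 CPM (ratio 1.95) and Hspe1 at 179.9 CPM (1.56), both higher in 5 of 5. The 2 lower and 2 higher of 8 members stood against 7.52% and 7.77% of all genes. Among barcodes of 1 suffix Hspa1a (2.09-fold) and Dnajb1 (1.89-fold) were lower, 2 of 8 against 8.56%, and Hspd1 (2.14) was higher, 1 of 8 against 7.17%. The Hspe1 call was lost without suffix 1 (ratio 1.36), and Hsp90ab1 was called higher without suffix 1 (ratio 1.56) or without suffix 4 (1.54). Of the 16 immediate early genes 10 were lower in this state with all barcodes and 3 with barcodes of 1 suffix.

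Fewer members differed in the other states. In the interferon response state (461 entries) Dnajb1 was 1.63-fold lower, 1 of 8 against 5.2%, with none higher against 6.24%; with barcodes of 1 suffix no member was called, against 5.5% lower and 5.7% higher. In the MHC class II state (319 entries, from Cd74, H2-Aa, H2-Ab1 and H2-Eb1) Dnajb1 was 1.74-fold lower (1.84-fold with barcodes of 1 suffix), 1 of 8 against 10% (10.4%), with none higher against 5.61% (6.15%). This share is near that of all genes. Of the 319 entries 163 stood under suffix 1, where microglia-like Dnajb1 was highest. The ratio of the summed Hspa1a, Hspa1b and Dnajb1 was 0.584, and 0.301 to 0.660 with 1 suffix left out. Without suffix 1 Hspe1 was called higher there with all barcodes (ratio 1.70), and 11 of the 16 immediate early genes were lower. In the state of high Ccl2 and Ccl12, a pair of chemokines (3049 entries), no member was called, against 2.49% of genes higher and 1.11% lower (2.54% and 0.648% with barcodes of 1 suffix). There Dnajb1 was at a ratio of 0.829 and Hspa5 at 1.07.

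**Figure D4:**
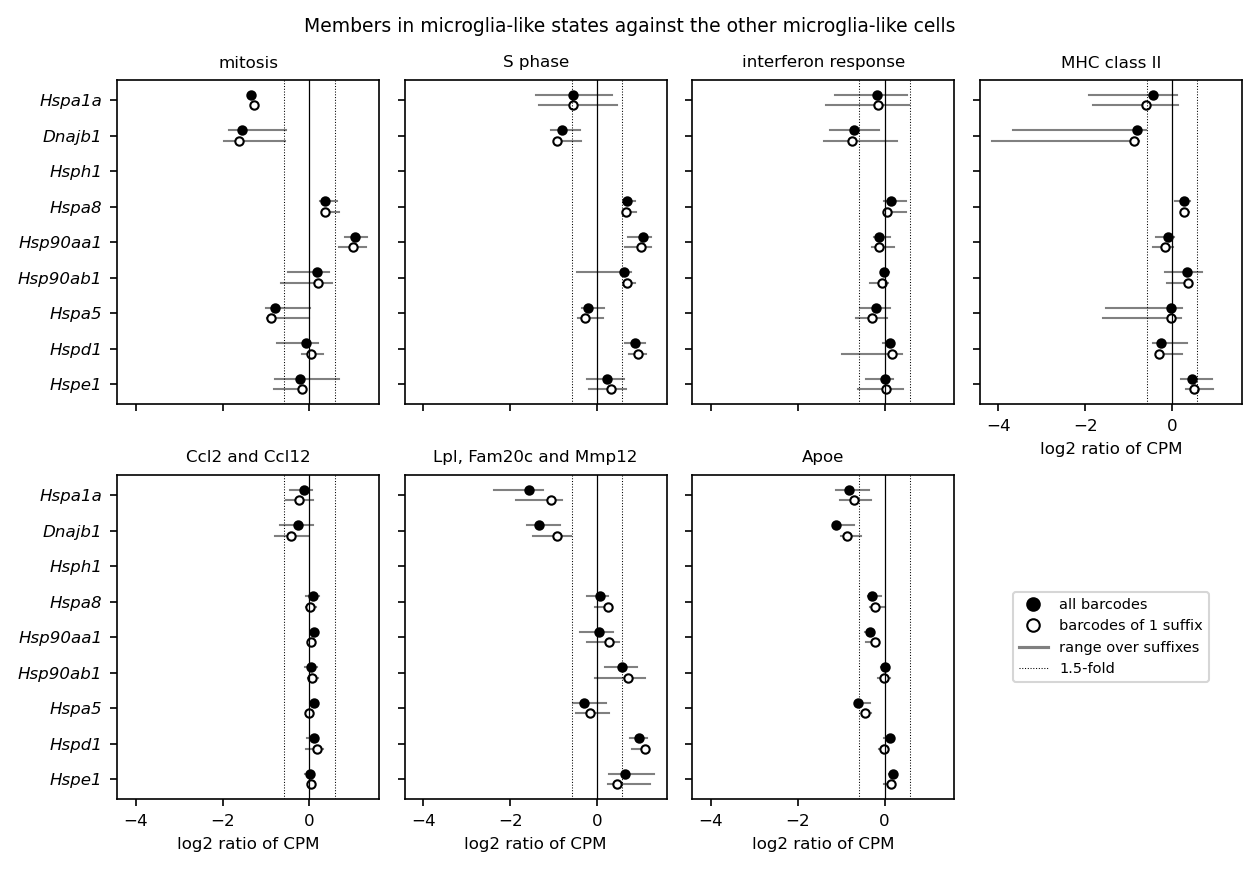
Log2 ratio of CPM of each tested member in 7 microglia-like states against the other microglia-like cells, with filled points for all barcodes, open points for barcodes of 1 suffix, grey bars for the range over suffixes where none was at 0 and dotted lines at 1.5-fold. Hsp90aa1 stands at 2.08 and 2.09 times the other cells in mitosis and S phase, and Dnajb1 lies left of 0 in each state.

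Per cell, the abundant members were found in most microglia-like cells. Cells of 1 suffix were thinned to 1000 UMIs each (22909 cells, 710 shallower ones left out). At that depth 88.7% had a UMI of Hspa5 (exact binomial 95% interval 88.2% to 89.1%), 74.1% of Hspa8 and 51.6% of Dnajb1 (51.0% to 52.3%). For Hsp90aa1 and Hsp90ab1 the shares were 36.7% and 35.2%, for Hspe1 and Hspd1 10.2% and 8.35%, and for Hspa1a 6.87%. Hsph1 was found in 0.825% and Hspa1b in 0.0524% of them. As a measure of free RNA, Ttr, a choroid plexus gene, had a UMI in 5.22% of the same thinned cells, and how much of the low shares of Hspa1a, Hspd1 and Hspe1 is free RNA was not tested. Unthinned, with a median of 3128 UMIs, the shares were 97.3% for Hspa5, 74.8% for Dnajb1 and 14.6% for Hspa1a. In thinned monocyte-like cells (73 cells) Dnajb1 was found in 6.85% (2.26% to 15.3%), Hspa5 in 47.9% (36.1% to 60.0%) and Hspa8 in 94.5% (86.6% to 98.5%).

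Members also differed in how they varied from cell to cell. The variance of the thinned UMIs over their mean, which is 1 for counts that vary by sampling alone, had a median over the suffixes of 3.38 for Dnajb1, 2.85 for Hspa5, 1.89 for Hspa8 and 1.71 for Hspa1a. The other 6 members lay between 0.993 and 1.15. This ratio can rise with the mean, so values at unlike means do not rank the members. The mean over the same cells was 1.46 thinned UMIs for Dnajb1, 3.94 for Hspa5, 1.83 for Hspa8 and 0.0943 for Hspa1a. At means near that of Hspa1a, Hspd1 (mean 0.0883) stood at 1.02 and Hspe1 (0.109) at 1.01, below the 1.71 of Hspa1a. Detection of one member was related to that of another only weakly: the share of cells with Dnajb1 was 1.04 times as large among cells with Hspa1a as among those without (median over suffixes). For Hspa1a among cells with and without Hspa5 the ratio was 1.27, and for Dnajb1 it was 1.16, above 1 in 6 of 6 suffixes for both.

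Genes most like 4 of the members were sought over the 20 combinations of gated group and suffix with at least 20 cells, by Pearson's r of log2(CPM + 10) over 2727 genes at 50 CPM or more. The points share libraries and most come from microglia-like and choroid plexus-like cells and the remainder, so r is a description. For Dnajb1 the 5 highest included Hspa5 (0.945), Etv5 (0.904), Adora3 (0.901) and Neurl1a (0.889). For Hspa5 they included Dnajb1 (0.945), Skil (0.938), Arsb (0.924) and Ier5 (0.919). For Hspa1a they were Ankrd10 (0.880), Ranbp2 (0.794), Dhrs7b (0.783), Cited2 (0.773) and Jagn1 (0.770). For Hsp90ab1 they were Mdm2 (0.765), Poldip2 (0.740), Rab5a (0.676), Commd9 (0.666) and Fam173a (0.666). With barcodes of 1 suffix, over 16 combinations and 2694 genes, the nearest genes of Hspa1a and Hsp90ab1 were largely others. They were Ccnl1 (0.915), Srsf7 (0.907), Plau (0.886), Lims1 (0.886) and Eif5 (0.882) for Hspa1a, and Dpy30 (0.903), Zwint (0.888), Mif (0.804), Mdm2 (0.779) and Psmc5 (0.754) for Hsp90ab1. The r of Hspa1a with Dnajb1 was 0.516 with all barcodes and 0.809 with those of 1 suffix. Dnajb1 and Hspa5 were among each other's 5 nearest genes in both sets (0.949 with barcodes of 1 suffix). Centred within suffix, they stayed so with all barcodes (0.940). With barcodes of 1 suffix their centred r was 0.951, but Dnajb1 was outside the 5 nearest of Hspa5. The centred r of Hspa1a with Dnajb1 was 0.378 with all barcodes and 0.742 with those of 1 suffix. Its nearest genes were then Ankrd10 (0.891) and Spty2d1 (0.951).

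The wider chaperone lists set these levels in context in microglia-like cells. Of other cytosolic heat shock genes the 3 highest included Ubb (4699 CPM) and the J-domain gene Dnaja1 (198 CPM). The ER chaperones were led by Calr (799.6 CPM), Pdia3 (677 CPM) and Hsp90b1 (561 CPM), all below Hspa5 of the same compartment. Among cochaperones Pfdn5 (266 CPM), Dnajc7 (195 CPM) and Cct4 (163 CPM) were highest, and among mitochondrial chaperones Hspa9 (75.4 CPM), Timm44 (63.8 CPM) and Grpel1 (54.0 CPM). Hsbp1, a heat shock factor binding protein, was at 149 CPM, Hsf1 at 35.2 CPM and Hsf2 at 10.3 CPM. The immediate early genes Jun (12489 CPM), Fos (10789 CPM) and Junb (8964 CPM) stood above every member. Over the suffixes 1 of 19 tested ER chaperones spread by 1.5-fold or more (Dnajb9, 1.58) and 1 of 22 cochaperones (Fkbp5, 1.91), against 10.8% of all genes. The small chaperone Hspb1 spread by 2.30-fold.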

How the data were processed

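Single-cell libraries of the 3 IL33 and 3 pcDNA mice were made with the Chromium 3′ v2 kit and sequenced on a NextSeq 500, with 3 libraries to a sequencing kit. Per the submitters' processing notes, the authors used Cell Ranger 3.1, Seurat 3.1.5 and the mouse genome mm10, and deposited raw UMI counts per gene and barcode as 1 joint matrix. The human tumor genome was not part of the alignment. No column of other samples was left out (0).

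An entry was kept when more than 200 and no more than 2500 genes were detected and less than 5% of its UMIs were mitochondrial. No doublet caller was run, and entries that met 2 gates were left out of the comparisons. UMIs were summed per gated group and suffix and scaled to 1000000 (CPM). Genes at 20 CPM or more in either group were compared, and the call rule is stated in the report. Groups were taken from the GEO labels only, which do not name the suffixes, so the suffixes were not assigned here and no count model and no test between groups was run, and intervals (exact Poisson for levels, exact binomial for shares) cover counting error only. State gates needed at least 3 marker UMIs and 0.2% of the cell's UMIs (mitosis, S phase, interferon response and Lpl, Fam20c and Mmp12) or 10 UMIs and 1% (MHC class II, Ccl2 and Ccl12, and Apoe). Other gates needed 2 to 5 marker UMIs and, the choroid plexus-like one aside, at most 2 microglial UMIs. The depth per suffix is given in the report.

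The members and gene lists were chosen with earlier results of these data known. The 10 members were always named, and genes of the other lists were taken from the 3 of highest CPM per list and the 3 highest and 3 lowest ratios per list among called genes of a comparison described. Cct6a was not matched, and 1 gene that this rule names is not reported here. Alternatives changed the entry filters, scaling, depth, gates, fold and suffixes used. The scripts used Python 3.11.15, numpy 2.4.6, scipy 1.17.1, pandas 2.3.3, Biopython 1.88 and matplotlib 3.10.9, and were tested on simulated data.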

Additional observations from a re-analysis of the deposited data

Results flagged for a closer look

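Members were also measurable in barcode entries that the filters left out of the comparisons, and a signal there is what brought these 4 values forward. In the 759 entries with 5% or more mitochondrial UMIs, Dnajb1 was at 260 CPM and Hspa5 at 2558 CPM, against 1271 and 3649.8 CPM in the microglia-like cells. In the 893 entries with over 2500 genes, Dnajb1 was at 844 CPM and Hspa5 at 3007 CPM. These entries were not gated into groups of cells, and the cause of the lower Dnajb1 was not tested. For each of the 10 members the 6 suffix levels in microglia-like cells were also searched for a suffix that stood far from the others, and 0 were found, where chance flags about 1 in 20. This search looks for a single extreme suffix and cannot flag levels that fall into clusters, such as those of Dnajb1 given below.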

How the results depend on the processing

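Of 238 values of the summed Hspa1a, Hspa1b and Dnajb1 under the alternatives, 218 moved by less than a set width. Dnajb1 made up 93.8% of the UMIs of these 3 genes, so the sum says little of Hspa1a and Hspa1b. Another 2105 values were of the single members other than Hspa1b and Hsph1 and of the summed Hspa1a and Hspa1b, and 141 of these moved by more. The width was the standard deviation over suffixes on the log2 scale. Where at most 1 suffix gave a ratio, as in Cd209a-positive, NK cell-like and granulocyte-like cells, it was a 95% counting width. That width is large for few UMIs. The values counted include those with 1 suffix left out, which share most of their cells with the reported value. Such values can hardly move by more than the spread over suffixes, so the counts are no measure of stability. The sum in monocyte-like cells was 0.0988 times that in microglia-like cells as reported. It was 0.112 when scaled without mitochondrial and ribosomal protein genes, 0.0818 with barcodes of 1 suffix, 0.142 as the median over suffixes, 0.0857 thinned to 500 UMIs, 0.0756 with the gate minimum doubled, 0.199 with the marker minimum alone, and 0.0900 to 0.110 with 1 suffix left out. That median over suffixes rested on the 2 suffixes with 20 or more monocyte-like cells. In NK cell-like cells the sum was 0.251 as reported and 0.425 with the marker minimum alone. It was 0.144 to 0.334 with 1 suffix left out, lowest without suffix 1. The median over suffixes, 0.152, was there the value of suffix 6 alone, the 1 suffix with 20 or more such cells (21). In granulocyte-like cells it went from 0.123 to 0.637 with the marker minimum alone. Thinned to 500 UMIs, the S phase ratio went from 0.579 to 0.704 and the Ccl2 and Ccl12 ratio from 0.834 to 1.08. The Lpl, Fam20c and Mmp12 ratio of 0.395 was 0.525 with barcodes of 1 suffix and 0.575 when these also had 2000 to under 4000 UMIs. The Apoe ratio of 0.467 was 0.556 and 0.582 under the same settings and 0.371 with the gate minimum doubled. The ratio of deep to shallow cells went from 2.30 to 1.43 with barcodes of 1 suffix. Hspd1 in NK cell-like cells went from 1.86 to 0.561 as the median over suffixes, which there is the 21 cells of suffix 6 alone. Hspe1 in the Lpl, Fam20c and Mmp12 state reversed from 1.56 to 0.883 with the gate minimum doubled. The cause was not tested for any of these. The Dnajb1 call in the interferon response state was also lost with 1 suffix only, thinning or the gate doubled, and that in the MHC class II state with 1 suffix only at 2000 to under 4000 UMIs or with the marker minimum alone. The marker minimum alone, the 2000 to under 4000 UMI setting, the comparison by sharing and the Apoe bins were chosen after seeing the data. A minimum of 1000 UMIs could not be applied to deep against shallow cells. No paired analysis was possible because the suffixes were not assigned to the labelled replicates here, although the labels number both groups of mice from 1 to 3.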

Other observations

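The 6 suffix levels of Dnajb1 in microglia-like cells fell into separate clusters: 1679, 1663 and 1499 CPM in suffixes 1, 2 and 3, and 893, 745 and 881 CPM in suffixes 4, 5 and 6. With barcodes of 1 suffix the levels were 1935, 1938 and 1545 CPM, and 946, 843 and 923 CPM. Hspa1a, Hspa5 and Hspa8 were also higher in each of suffixes 1, 2 and 3 than in any of suffixes 4, 5 and 6. Their relative steps were smaller, for Hspa1a from 93.1 CPM in suffix 3 to 70.7 CPM in suffix 4. Hsp90ab1, Hspd1 and Hspe1, highest in suffix 4, did not divide in this way. The division was read from these same levels, and the share of all genes that divide in this way was not computed. It therefore does not set the members apart from other genes. The GEO labels do not name the suffixes, which were not assigned to mice or groups here, and the division was not tested.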
